A study of Mus musculus with 18 samples.

Results

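The genotype effect shared by the 3 regions of the cochlea was read as the set of autosomal genes whose level differed in the same direction between Fst cKO and Control in each of base, middle and apex. Fst encodes follistatin, a secreted protein that binds activins, and the cKO groups carry a conditional knock-out of it. RNA of the 4-week-old mouse cochlea was sequenced in 6 groups: Fst cKO base, Fst cKO middle, Fst cKO apex, Control base, Control middle and Control apex. The genotype label of the Control mice is WT. The labels name no Cre line, no strain background, no number of animals per pool and no hour of dissection. Each group was 1 pool of RNA split into 3 technical libraries, so the 3 counts of a gene were summed and each group entered as 1 value. Library totals ran from 24446760 to 33732726 counts. The sums were fitted with region as a factor and genotype as the tested term, which leaves 2 residual degrees of freedom. P-values of that fit set the mean genotype difference against how far the 3 regions depart from it. They do not measure the spread between animals, since no group holds a second pool. Genes on chromosomes X and Y were left out of every count.

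Of 46583 genes in the table, 19446 had enough counts to be tested and 18685 of these were autosomal. The direction was the same in the 3 regions for 6458 autosomal genes, 34.6% of those tested, with 3043 higher (16.3%) and 3415 lower (18.3%) in the cKO. The median log2 difference over all autosomal genes tested was 0.0015. A log2 difference is cKO over Control throughout, and a level is in CPM, counts scaled to a common library total, with the SD over the 3 technical libraries. The libraries also gave the technical spread: 1109 of the autosomal genes (5.94%) had the same direction and passed the edgeR quasi-likelihood test on libraries at an adjusted p under 0.05 in each region, 493 higher (2.64%) and 616 lower (3.3%).

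Sex-linked transcripts, outside the counts, differed between the genotypes in each region. Xist, the X-inactivation RNA, stood at 58.9, 87.5 and 81.9 CPM in base, middle and apex of the cKO and at 302, 297 and 371 CPM in base, middle and apex of the Control. The Y-linked Eif2s3y stood at 47.4, 46.6 and 43.3 CPM in the cKO and at 23.3, 26 and 24 CPM in the Control. Xist was lower, and Eif2s3y higher, in each cKO pool than in any Control pool. The sex mix of the pools thus moved with the genotype, and the 2 cannot be told apart in any result below.

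Per2 rose in the Fst cKO in all 3 regions, and the transcripts Mettl7a2 and Gm14150 fell. These were the 3 autosomal genes called by the edgeR quasi-likelihood test at an adjusted p under 0.05, 0.0161% of those tested (1 higher, 0.00535%, and 2 lower, 0.0107%). Per2 encodes a period protein, a repressor in the circadian clock. Per2 (ENSMUSG00000055866, chromosome 1, 91415982 to 91459324, minus strand, GRCm38/mm10, protein coding) stood at 54.9 ± 0.404 CPM in cKO base, 55.9 ± 0.158 CPM in cKO middle and 56.8 ± 1.25 CPM in cKO apex, against 30.9 ± 0.854, 29.6 ± 0.762 and 32 ± 0.514 CPM in the same regions of the Control (SD, n = 3 technical libraries). The 3 cKO pools lay close together and well above the 3 Control pools. The log2 difference was 0.82 in base, 0.90 in middle and 0.85 in apex, and the edgeR estimate over the regions was 0.86 ± 0.042 (SE, adjusted p = 0.0498). Between regions the Per2 difference varied by 0.02 for apex minus base, by -0.06 for apex minus middle and by 0.08 for middle minus base, with adjusted p of 0.776, 0.365 and 0.191 in edgeR's test on libraries. The fit favours genes whose regions depart little from their mean difference. The closeness of the regions therefore goes with the call and is no separate result.

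Mettl7a2 (ENSMUSG00000056487, chromosome 15, 100353200 to 100361840, plus strand, protein coding) belongs to a family of membrane methyltransferases. It was counted 0, 1 and 1 times in base, middle and apex of the cKO and 29, 42 and 37 times in base, middle and apex of the Control. Over the regions that is 2 counts against 108, a count ratio of cKO over Control of 0.0185 (exact 95% interval 0.00221 to 0.0685, counting error only), and the edgeR adjusted p was 0.0336. Gm14150 (ENSMUSG00000082809, chromosome 2, 151458956 to 151460309, plus strand), a processed pseudogene, held 11, 13 and 10 counts in the cKO pools and 220, 480 and 278 counts in the Control pools. Its edgeR estimate was -4.86 ± 0.25 (SE, adjusted p = 0.0498).

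The 3 calls lay close to the threshold, and single libraries decided them. With 1 library left out of its sum, the edgeR count ran from 0 to 5. It was 0 without cKO middle replicate 2, cKO middle replicate 3, or cKO apex replicate 1, 2 or 3. It was 1, Mettl7a2, without Control base replicate 3, Control middle replicate 1 or 3, Control apex replicate 1 or 3, or cKO base replicate 3, and it was 5 without Control base replicate 2 or Control apex replicate 2. Just outside the threshold lay Rps15a-ps7 (adjusted p = 0.0672), Fkbp5 (adjusted p = 0.0682) and Gpnmb (adjusted p = 0.0682) in the same edgeR test. At an unadjusted p under 0.05 the edgeR test held 2047 autosomal genes of the same direction (11%), 963 higher (5.15%) and 1084 lower (5.8%). DESeq2 on the same sums, at an adjusted p under 0.05, called 350 (1.87%), 148 higher (0.792%) and 202 lower (1.08%). Of these 350 genes, 258 differed by under 1.5-fold over the regions.

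**Figure D1:**
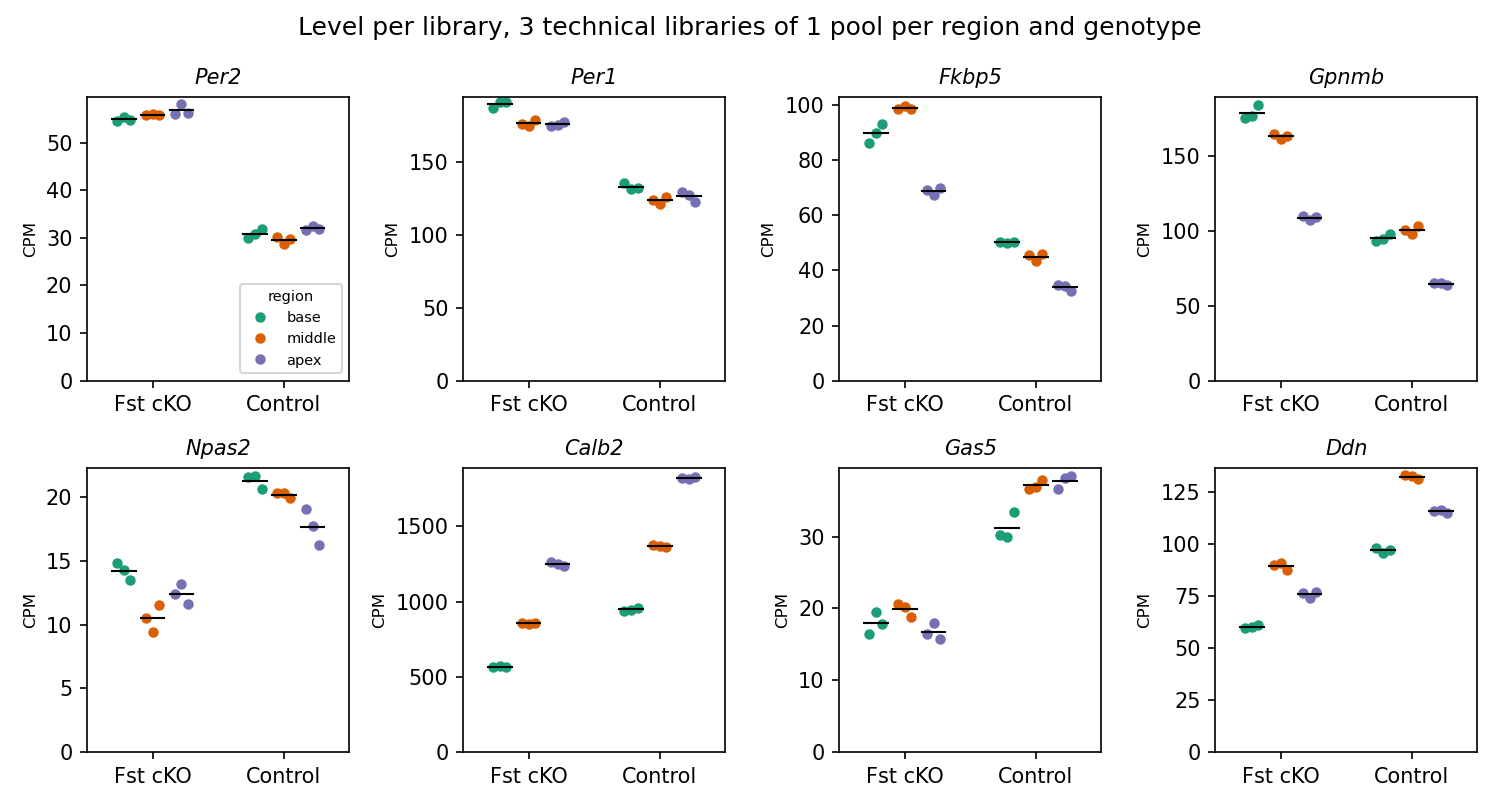
Level of 8 genes in CPM (vertical axis, linear from 0) in each of the 18 libraries, with the 3 Fst cKO pools on the left of a panel and the 3 Control pools on the right. Points are technical libraries, bars are their means and colours are the regions. Per2 lies at 54.9 to 56.8 CPM in the cKO pools and at 29.6 to 32 CPM in the Control pools, while Fkbp5, Gpnmb and Calb2 also vary between regions within a genotype.

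Of 17 circadian clock genes, 12 were higher in every region (16.3% of all autosomal genes tested were) and 4 were lower (18.3%). The clock is a feedback loop: Arntl with Clock or Npas2 activates the Per, Cry, Nr1d and D-box factor genes through E-box motifs, and the Per and Cry proteins repress that activation. Transcripts of the activator Arntl and of the Per genes cycle over the day in opposite phase in most mouse tissues. In edgeR's test 1 of the 17 was called (Per2), against 0.0161% of all autosomal genes tested. At an unadjusted p under 0.05 the edgeR test held 11 higher and 3 lower (5.15% and 5.8% of all autosomal genes tested). DESeq2 called 8 higher and 2 lower (0.792% and 1.08% of all). The median log2 difference of the list was 0.21, against 0.0015 for all autosomal genes tested. The summed level of the 17 genes was 1850, 1800 and 1860 CPM in base, middle and apex of the cKO and 1550, 1410 and 1550 CPM in the Control, without overlap.

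Among the repressors, Per1 stood at 190, 177 and 176 CPM in base, middle and apex of the cKO and at 133, 124 and 127 CPM in the Control. The log2 difference of Per1 was 0.50 in each of the 3 regions (edgeR adjusted p = 0.069, DESeq2 adjusted p = 9.01e-17). Per3 stood at 108, 111 and 114 CPM in the cKO and at 83.4, 72.9 and 89.3 CPM in the Control, and Ciart, which encodes another repressor of the loop, at 22.3, 23 and 22.4 CPM against 15.4, 14.5 and 14.5 CPM in the Control. No cKO pool overlapped a Control pool for Per1, Per3 or Ciart. The share of all autosomal genes without such overlap was not counted. Wherever a lack of overlap is given, it therefore only describes the values of the genes or lists named. Cry2 had a log2 difference of 0.13 and passed in neither tool (edgeR adjusted p = 0.435, DESeq2 adjusted p = 0.617), and its 0.05 in apex did not pass the technical spread (edgeR adjusted p = 0.105). Cry1 was the 1 clock gene without a common direction, at 0.15 in base but -0.07 in middle and -0.15 in the apical pools.

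The D-box factor genes, whose proteins carry the rhythm to metabolic genes, were also on the higher side. Dbp stood at 156, 136 and 156 CPM in base, middle and apex of the cKO and at 101, 70.4 and 95.4 CPM in the Control (log2 0.76 ± 0.071, edgeR adjusted p = 0.0976). Tef stood at 341, 327 and 329 CPM in the cKO against 272, 248 and 270 CPM in the Control, and Hlf had a log2 difference of 0.16. The repressor genes Nr1d1, Nr1d2, Bhlhe40 and Bhlhe41 had log2 differences of 0.21, 0.25, 0.18 and 0.30. DESeq2 adjusted p was 3.28e-06 for Per3, 2.36e-16 for Dbp, 2.34e-07 for Tef and 9.13e-08 for Ciart, none of which edgeR called. It was 0.021 for Nr1d1 and 0.00453 for Bhlhe41, while Hlf (0.617), Nr1d2 (0.0925) and Bhlhe40 (0.249) passed in neither tool.

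On the activating arm the direction was the opposite. Npas2 stood at 14.2, 10.5 and 12.4 CPM in base, middle and apex of the cKO and at 21.3, 20.2 and 17.7 CPM in the Control, and Arntl at 19.4, 16.7 and 17.8 CPM in the cKO and at 23.3, 25.2 and 24.1 CPM in the Control. Every cKO pool lay below every Control pool for both genes. Their log2 differences were -0.68 ± 0.10 (edgeR adjusted p = 0.204) and -0.43 ± 0.077 (edgeR adjusted p = 0.223), with DESeq2 adjusted p of 0.000159 for Npas2 and 0.00985 for Arntl. Clock stood at -0.13 on the log2 scale and Nfil3, a repressor at D-boxes, at -0.22, with DESeq2 adjusted p of 0.613 and 0.895.

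**Figure D2:**
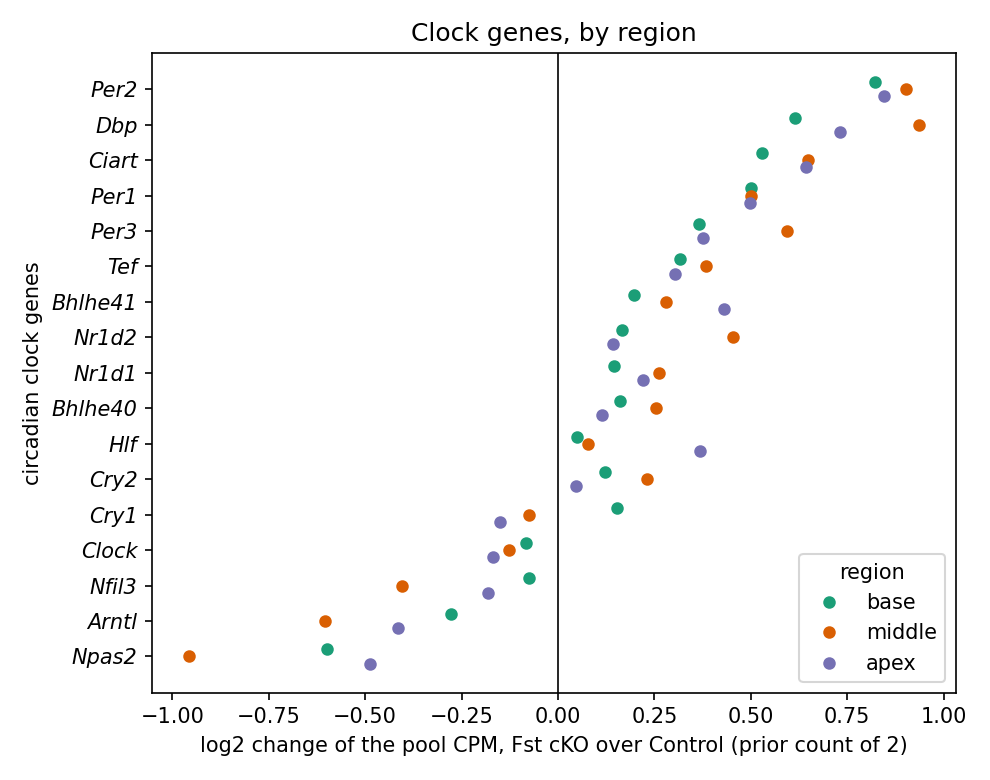
Log2 difference of the pool CPM, Fst cKO over Control (horizontal axis), for the 17 clock genes (rows, ordered by the estimate over the regions), with 1 point per region in the colour of the region. Per2, Dbp, Ciart and Per1 lie to the right of 0 in each region, Npas2 and Arntl to the left, and Cry1 on both sides.

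The windows of 250 bases before the start of 4 of the higher clock genes are printed because they carry the motifs of the loop, 5′ to 3′ on the gene's strand, from RefSeq on GRCm38.p6. Capitals mark the E-box CACGTG and the D-box TTATGTAA, searched on both strands.
Ciart, chr3:95882229-95882478, minus strand: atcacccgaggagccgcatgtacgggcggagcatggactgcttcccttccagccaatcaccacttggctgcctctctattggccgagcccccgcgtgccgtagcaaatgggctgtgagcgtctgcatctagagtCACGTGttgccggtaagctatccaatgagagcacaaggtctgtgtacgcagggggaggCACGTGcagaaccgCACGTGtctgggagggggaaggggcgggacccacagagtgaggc
Per1, chr11:69098699-69098948, plus strand: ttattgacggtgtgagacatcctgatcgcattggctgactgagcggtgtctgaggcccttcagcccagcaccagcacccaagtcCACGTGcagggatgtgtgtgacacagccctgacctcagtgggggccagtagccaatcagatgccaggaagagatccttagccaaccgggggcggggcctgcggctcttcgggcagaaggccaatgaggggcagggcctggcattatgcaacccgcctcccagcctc
Tef, chr15:81811164-81811413, plus strand: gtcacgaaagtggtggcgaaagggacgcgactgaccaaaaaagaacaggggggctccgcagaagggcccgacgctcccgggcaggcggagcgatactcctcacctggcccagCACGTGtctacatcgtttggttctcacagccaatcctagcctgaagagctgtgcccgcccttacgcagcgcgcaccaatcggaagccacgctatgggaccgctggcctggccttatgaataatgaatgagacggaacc
Per3, chr4:151044666-151044915, minus strand: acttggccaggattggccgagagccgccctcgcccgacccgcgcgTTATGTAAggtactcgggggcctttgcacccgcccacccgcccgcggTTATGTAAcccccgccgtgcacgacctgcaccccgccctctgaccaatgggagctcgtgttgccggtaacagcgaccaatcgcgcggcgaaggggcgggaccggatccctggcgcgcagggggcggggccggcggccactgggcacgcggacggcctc
The Ciart window holds 3 E-boxes, and the Per1 and Tef windows 1 each, while the Per3 window holds no E-box and 2 D-boxes. Of 15 clock genes with a window, 5 held an E-box, in 6 of their 20 windows, and Cry1, the clock gene without a common direction, was among the 5. The E-box was in 6.02% of all 32851 windows. The D-box was in 1 of the 15 clock genes and in 0.819% of all windows. The match describes these letters in these windows only.

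Genes known to respond to glucocorticoids or to metals were also mostly higher in every region. Of 11 autosomal members tested, 7 were higher (16.3% of all autosomal genes) and 1 lower (18.3%) in every region. The edgeR test called 0 of them and held 6 higher (5.15% of all) and 0 lower (5.8%) at an unadjusted p under 0.05. DESeq2 called 6 higher (0.792% of all). The list shares Per1 with the clock list. Its median log2 difference was 0.39, and the summed level of its 12 genes, the X-linked Tsc22d3 included, was 1350, 1350 and 1290 CPM in base, middle and apex of the cKO and 1080, 1080 and 1050 CPM in the Control. Fkbp5, which encodes a cochaperone of the glucocorticoid receptor and is itself a target of it, stood at 89.8 ± 3.42, 98.9 ± 0.678 and 68.8 ± 1.3 CPM in base, middle and apex of the cKO, against 50.2 ± 0.171, 45 ± 1.38 and 33.9 ± 1.02 CPM in the Control (SD, n = 3 technical libraries). Every cKO pool exceeded every Control pool, and within each genotype the apex was lowest. The log2 difference of Fkbp5 was 0.999 ± 0.068 (DESeq2 adjusted p = 1.03e-26).

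The metallothionein genes, whose proteins bind zinc and copper, differed less. Mt2 stood at 47.7, 50.1 and 54.4 CPM in base, middle and apex of the cKO and at 35.2, 37.4 and 41.9 CPM in the Control, a log2 difference of 0.41 ± 0.039. Mt1 was higher by 0.39, Zbtb16, a zinc finger repressor, by 0.50 and Sgk1, a kinase that regulates sodium transport, by 0.29. These 3 genes, Mt2, Fkbp5 and Per1 each had a DESeq2 adjusted p under 0.05 and show only the higher side of the list. Over its 11 tested autosomal members the log2 difference ran from -0.13 to 0.999. Sgk1 is shown because 1 of its RefSeq windows held the full palindrome of the glucocorticoid response element, AGAACA and TGTTCT with 3 bases between them, marked in capitals, which was in 3 of all 32851 windows.
Sgk1, chr10:21993640-21993889, plus strand: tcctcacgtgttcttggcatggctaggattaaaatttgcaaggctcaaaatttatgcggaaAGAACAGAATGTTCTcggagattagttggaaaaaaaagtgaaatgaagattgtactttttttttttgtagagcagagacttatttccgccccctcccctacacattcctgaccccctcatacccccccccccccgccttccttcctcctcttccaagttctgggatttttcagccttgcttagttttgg
No other window of the 10 list genes with one held that palindrome, and no window of the clock genes did.

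Some transcripts were counted in 1 genotype and almost absent from the other. Those described here were chosen after their values were seen. Rps13-ps1 (chromosome 8, 87047689 to 87048226, plus strand, processed pseudogene) held 265, 312 and 243 counts in base, middle and apex of the cKO and 0 in each Control pool. With a floor of 3 counts per Control pool, the limit that a count of 0 allows, it was at least 98.1-fold, 89.5-fold and 86.2-fold higher in base, middle and apex. Gbp2b (chromosome 3, 142594847 to 142619179, plus strand), an interferon-inducible GTPase gene known to differ between inbred strains, held 62, 105 and 94 counts in the cKO and 0 in each Control pool, at least 23-fold, 30.1-fold and 33.3-fold higher. Rps15a-ps7 (chromosome 2, 152185291 to 152185682, minus strand) held 169, 182 and 200 counts in the cKO and 11, 9 and 5 counts in the Control, with a log2 estimate of 4.45 ± 0.28. Rps15a-ps8 on chromosome 4 held 13, 21 and 15 counts in the cKO and 0 in the Control, at least 4.81-fold, 6.02-fold and 5.32-fold higher.

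In the other direction, Gm6969 held 12, 21 and 16 counts in base, middle and apex of the cKO and 204, 127 and 249 counts in the Control, and Gm6166 held 1, 4 and 6 counts in the cKO and 31, 69 and 40 counts in the Control. Methig1, which overlaps Mettl7a2 on chromosome 15 and is identical to it at 99.8% of 512 aligned bases, held 1 count over the 3 cKO pools and 65 over the 3 Control pools. Reads of Methig1 and Mettl7a2 can therefore be split either way by the counting, and their values are uncertain. Mettl7a1, the neighbouring family member at 92.6% identity, stood at 86.9, 77.4 and 93.3 CPM in the cKO and at 82.2, 76.8 and 74.6 CPM in the Control, with overlapping pools.

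The likeness to the parent genes is close enough that a read can match both. Rps13-ps1 was identical to Rps13 at 99.6% of 522 aligned bases of the GENCODE transcripts, Rps15a-ps7 to Rps15a at 98.7%, Gm14150 to Tuba1b at 98.6%, Gm6969 to Cox7a2l at 97.7% and Gm6166 to Fabp5 at 98.3%. A stretch of 60 bases of the coding part is printed for 2 pseudogenes and their parents, with the bases that differ in capitals, to show how few bases separate the copies.
Rps13-ps1: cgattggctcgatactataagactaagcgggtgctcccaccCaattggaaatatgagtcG
Rps13: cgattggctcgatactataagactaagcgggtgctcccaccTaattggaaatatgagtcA
Rps15a-ps7: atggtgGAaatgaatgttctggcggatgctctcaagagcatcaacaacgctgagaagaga
Rps15a: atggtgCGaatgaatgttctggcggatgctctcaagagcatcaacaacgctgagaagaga
The parents differed little: Rps13 stood at 67.7, 74.2 and 91.1 CPM in base, middle and apex of the cKO and at 72.3, 76.5 and 83.9 CPM in the Control, and its estimate of -0.01 changed sign under other settings. The log2 difference was -0.13 for Rps15a and -0.15 for Tuba1b. Processed pseudogenes made up 19 of the genes at least 1.5-fold apart in each region, 4.29% of the 443 tested, against 0.621% of 15465 protein-coding genes. That rule holds no test, and 86 of its 146 genes stayed under 1 CPM in every pool. The shares were not matched for level, so they do not compare pseudogenes with protein-coding genes of equal abundance. Of 14 tested genes reported to differ between inbred mouse strains, 2 were higher and 4 lower in every region (16.3% and 18.3% of all autosomal genes tested). Their median was 0.02, and Gbp2b was the one at least 1.5-fold apart. Whether the genotypes differ in strain background is not given in the labels, and its part in these differences was not tested.

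**Figure D3:**
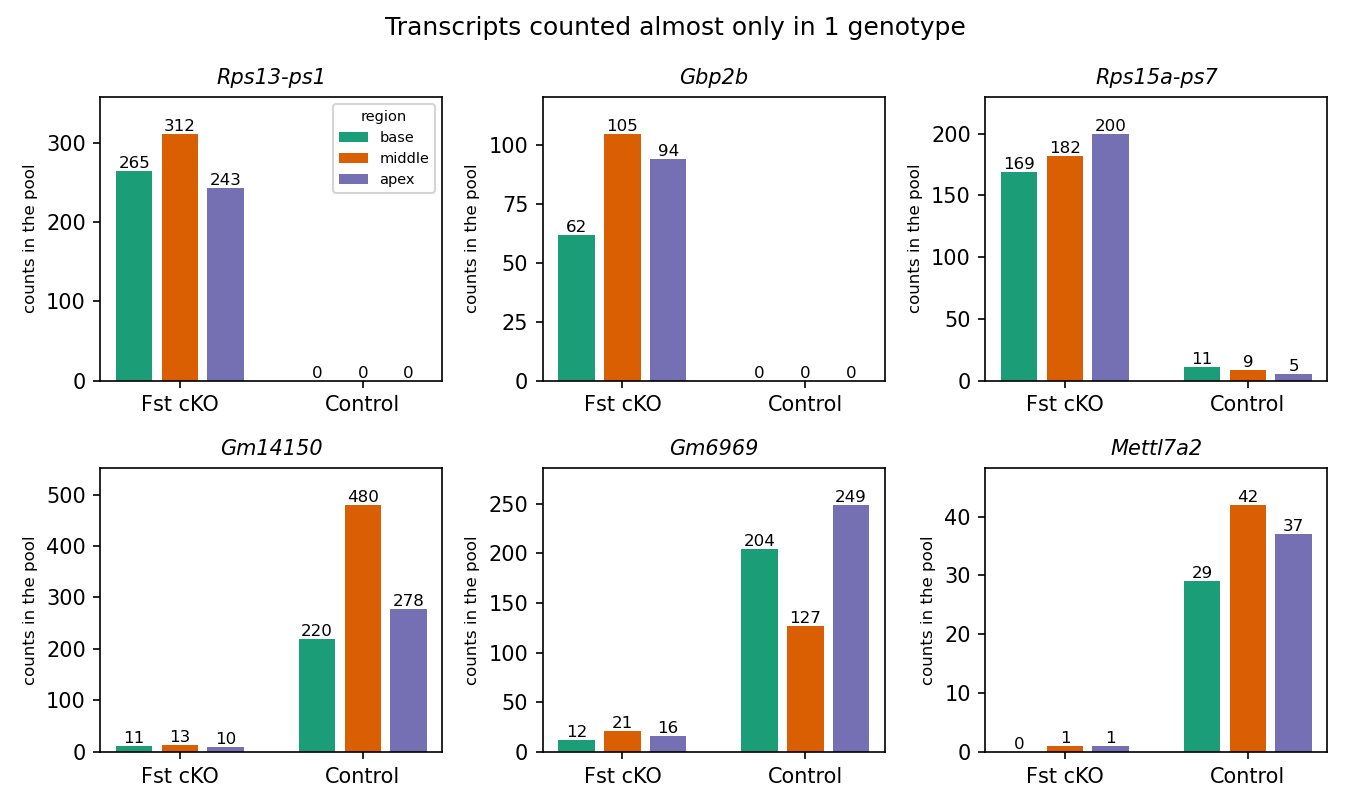
Counts summed over the 3 libraries of a pool (vertical axis, linear from 0, a scale per panel) for 6 transcripts, with the Fst cKO pools on the left of each panel and the Control pools on the right, coloured by region and labelled with the count. Rps13-ps1 and Gbp2b hold 0 counts in every Control pool, and Mettl7a2 holds 0, 1 and 1 in the cKO pools.

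Size was described by a rule without a test: 146 autosomal genes were at least 1.5-fold apart in the same direction in each region, 0.781% of those tested, with 97 higher (0.519%) and 49 lower (0.262%). Of these, 86 stayed under 1 CPM in every pool, 43 had a mean of at least 1 CPM (28 higher and 15 lower), and 39 were at least 2-fold apart in each region. Just inside the rule lay Plin5, RP23-8L20.6 and Gm9825, with smallest log2 differences of 0.59, and just outside it Oaz3, Gm12002 and Cdh9, at 0.58. In 54 of the 146 the difference passed the technical spread in each region by edgeR's test on libraries. The genes were spread over the autosomes, with 17 on chromosome 3 (1.55% of those tested there) and 2 on chromosome 10 (0.233%). Within 10 Mb of Fst on chromosome 13, 70 genes were tested and 3 met the rule. They were Ccno at -1.46 Mb, with a log2 difference of 1.04, and 3110070M22Rik and Ccl28 at 5.03 and 5.17 Mb, with log2 differences of -1.12 and -0.87. None of the 3 passed over the regions in edgeR (adjusted p = 0.363, 0.325 and 0.217) or DESeq2 (adjusted p = 0.945, 0.628 and 0.102), and Ccno did not pass the technical spread in any region.

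**Figure D4:**
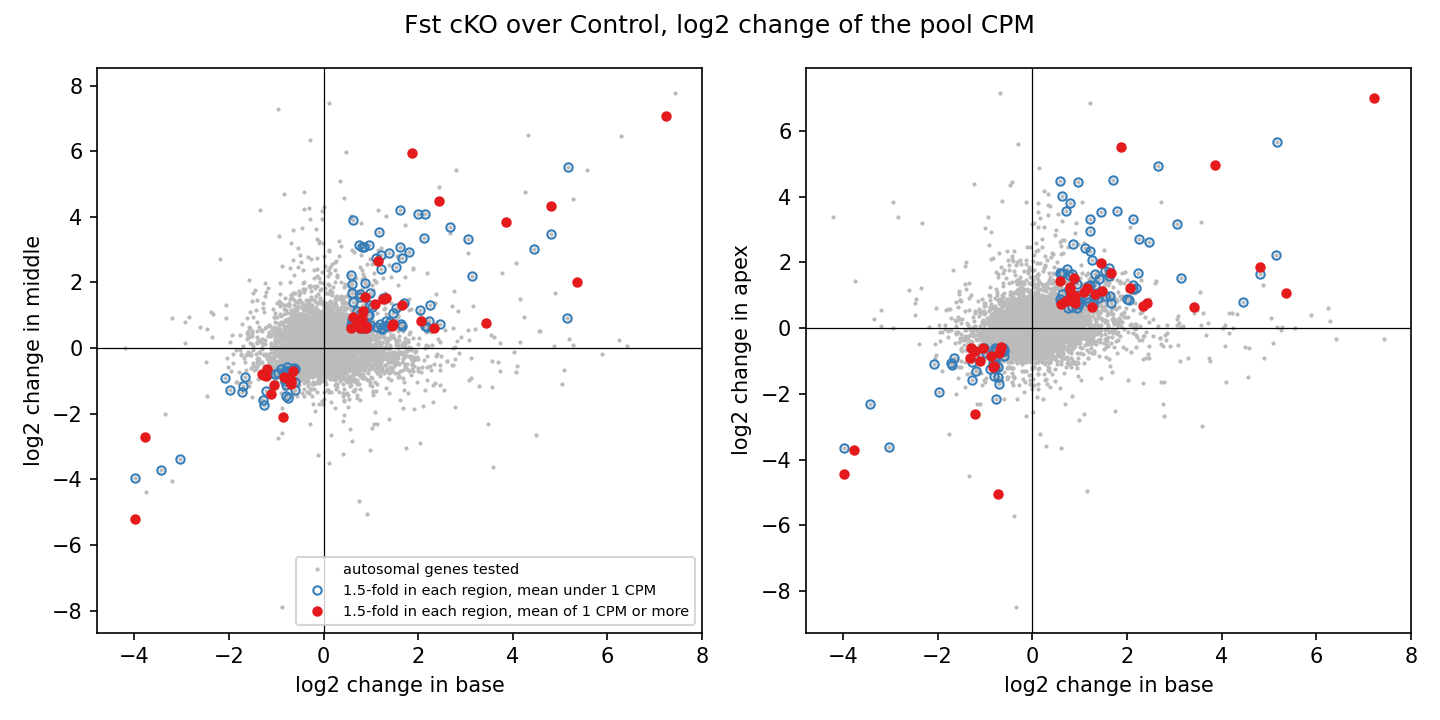
Log2 difference of the pool CPM, Fst cKO over Control, in middle (left panel) and apex (right panel) against base. Grey points are autosomal genes tested, and circles are the 146 genes at least 1.5-fold apart in each region, filled where the mean is at least 1 CPM. Circles lie in the upper right and lower left because the rule requires the same direction, and many of those higher in middle or apex are nearer 0 in base.

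The abundant members with the widest margins, chosen after their values were seen, had few functions in common. Ibsp, bone sialoprotein, stood at 96.4 ± 1.72, 134 ± 2.87 and 65.6 ± 3.97 CPM in base, middle and apex of the cKO and at 52.1 ± 1.66, 45.5 ± 1.44 and 23.3 ± 1.91 CPM in the Control (SD, n = 3 technical libraries), without overlap and with a log2 difference of 1.31 ± 0.15. On the list of osteoblast and bone matrix genes 3 of 15 were higher in every region (16.3% of all autosomal genes tested) and none lower (18.3%), with a median of 0.44. The list summed to 9380, 7930 and 5240 CPM in the cKO and to 8340, 7280 and 5490 CPM in the Control, so the list overlapped while Ibsp did not, and the part of bone in the Ibsp difference was not tested. Ifitm5, a membrane protein of osteoblasts, was higher by 0.53 in base, 1.61 in middle and 1.34 in apex. In bulk tissue fewer cells of a type and less RNA per cell cannot be told apart.

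Gpnmb, a membrane glycoprotein of melanocytes and phagocytes, stood at 178, 163 and 109 CPM in base, middle and apex of the cKO and at 95.1, 100 and 64.8 CPM in the Control. The log2 difference of Gpnmb was 0.78 ± 0.054 and every cKO pool lay above every Control pool. The macrophage list summed to 295, 248 and 200 CPM in the cKO and 236, 263 and 183 CPM in the Control. Of its 12 genes 2 were higher and 1 lower in every region (16.3% and 18.3% of all autosomal genes tested). Plin4, a lipid droplet protein, was higher by 0.65 (63.7, 65.2 and 43 CPM in the cKO, against 40.5, 38 and 30.1 CPM in the Control). With 0.54 in apex it fell short of the 1.5-fold rule. Less abundant genes higher in every region were Sult1e1, an estrogen sulfotransferase, at 3.56, 5.12 and 0.433 CPM in the cKO against 0.099, 0.23 and 0.105 CPM in the Control, Wisp2 at 3.34, 1.04 and 0.259 CPM against 1.3, 0.345 and 0.116 CPM, and the ion channel genes Kcnh1 (log2 1.504) and Asic2 (log2 2.99). In apex, Wisp2 and Asic2 did not pass the technical spread (edgeR adjusted p = 0.0957 and 0.115).

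Among the lower genes, Gas5, a noncoding RNA that hosts small nucleolar RNAs, stood at 17.9 ± 1.54, 19.9 ± 0.967 and 16.7 ± 1.13 CPM in base, middle and apex of the cKO and at 31.2 ± 1.92, 37.1 ± 0.641 and 37.7 ± 0.963 CPM in the Control (SD, n = 3 technical libraries). All cKO libraries of Gas5 lay below all Control libraries, with a log2 difference of -0.96 ± 0.08. Myc, a transcription factor of growth, stood at 2.65, 2.7 and 2.95 CPM in the cKO and at 4.22, 5.29 and 4.78 CPM in the Control. On the log2 scale Them5, a mitochondrial thioesterase, stood at -0.99, Ttn, which encodes the sarcomere protein titin, at -0.92, and C2cd4b at -1.18. Of 11 skeletal muscle markers tested, 4 were higher and 0 lower in every region (16.3% and 18.3% of all autosomal genes tested), with a median log2 difference of 0.53. The list's summed level was 160, 259 and 221 CPM for base, middle and apex of the cKO and 222, 250 and 300 CPM for the Control, and its part in the Ttn difference was not tested. Apoa4, an apolipoprotein, stood at 1.48, 1.49 and 13.3 CPM in the cKO and at 2.7, 6.43 and 24.1 CPM in the Control, so that cKO apex lay above Control base and middle although each region was lower in the cKO.

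Genes of spiral ganglion neurons, which carry the signal of the hair cells to the brainstem, were more often lower than higher. Of 26 tested, 10 were lower (18.3% of all autosomal genes) and 2 higher (16.3%) in every region, and the median was -0.28. The edgeR test called 0 of them and held 9 lower (5.8% of all) and 2 higher (5.15%) at an unadjusted p under 0.05. DESeq2 called 4 lower (1.08% of all). The list summed to 4710, 8070 and 7490 CPM in base, middle and apex of the cKO and to 7030, 8310 and 9980 CPM in the Control. Calb2, the calcium buffer calretinin of neurons and inner hair cells, stood at 568 ± 4.03, 858 ± 3.73 and 1250 ± 14.8 CPM in the cKO and at 948 ± 11.3, 1370 ± 6.18 and 1820 ± 4.78 CPM in the Control (SD, n = 3 technical libraries). It was lowest in base and highest in apex in both genotypes and was lower in the cKO in each region, with log2 differences of -0.75, -0.69 and -0.53. Map2, a dendritic microtubule protein, stood at -0.38, Syt2, a synaptic vesicle calcium sensor, at -0.37, and Nefh, a neurofilament subunit, at -0.41. Nefh and Syt2 differed least in middle, at -0.09 and -0.10. Calb2, Map2, Syt2 and Nefh each had a DESeq2 adjusted p under 0.05 and show only the lower side of the list. Over its 26 tested genes the log2 difference ran from -0.98 to 2.11.

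Outside that list, Ddn, the dendritic protein dendrin, stood at 60.1, 89.5 and 75.8 CPM in base, middle and apex of the cKO and at 96.9, 132 and 116 CPM in the Control, without overlap (log2 -0.62 ± 0.044, edgeR adjusted p = 0.0682). Chgb, chromogranin B of secretory granules, stood at -0.45 on the log2 scale and Spock3, a proteoglycan gene, at -0.56. Of 14 genes of Schwann cells and peripheral myelin 5 were lower and 0 higher in every region, and of 14 of oligodendrocytes and astrocytes 5 were lower and 0 higher, against 18.3% lower and 16.3% higher of all autosomal genes tested. Of these edgeR called 0 in either list, and DESeq2 called 3 and 1 lower (1.08% of all autosomal genes tested). Markers of cerebellum and hindbrain neurons went the other way, with 5 of 13 higher and 0 lower, and they summed to 733, 559 and 478 CPM in the cKO and to 499, 509 and 476 CPM in the Control. The part of such brain tissue in these differences was not tested.

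Genes of motile cilia, which beat on the lining of the airway and middle ear, held 6 higher and 2 lower of 16 in every region. Of all autosomal genes tested, 16.3% were higher and 18.3% lower. The edgeR test called 0 of the list, and DESeq2 called 3 higher (0.792% of all autosomal genes tested). Ccdc108 stood at 1.21 ± 0.387, 5.71 ± 0.279 and 4.2 ± 0.362 CPM in base, middle and apex of the cKO and at 0.299 ± 0.156, 0.0691 ± 0.0347 and 0.0697 ± 0.000182 CPM in the Control (SD, n = 3 technical libraries). The axonemal genes Dnah5, Ccdc40 and Rsph4a were also at least 1.5-fold apart in each region. Dnah5 stood at 0.463, 1.71 and 2.97 CPM in base, middle and apex of the cKO and at 0.304, 0.092 and 0.162 CPM in the Control, and Ccdc40 at 0.771, 1.76 and 1.46 CPM in the cKO and at 0.408, 0.426 and 0.511 CPM in the Control. In base the differences of Dnah5 (36 counts in the cKO pool, 25 in the Control pool) and of Rsph4a (14 and 7) did not pass the technical spread (edgeR adjusted p = 0.226 and 0.25). Ttc21a, an intraflagellar transport gene, stood at 1.14, 3.84 and 1.59 CPM in the cKO against 0.488, 0.587 and 0.685 CPM in the Control. Foxj1, the master regulator of motile cilia, stood at 8.29, 14.4 and 15.7 CPM in the cKO and at 13.5, 14.8 and 17.5 CPM in the Control, and Tppp3, also abundant in ciliated cells, had a log2 difference of -0.15. The list summed to 52, 78.5 and 87.2 CPM in the cKO and to 60.8, 64.6 and 76.6 CPM in the Control. The list of airway secretory and middle ear mucosa summed to 171, 69.9 and 414 CPM in the cKO and to 167, 66.7 and 63.6 CPM in the Control, and its part in the cilia differences was not tested.

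Fst itself had log2 differences of -0.22 in base, -1.10 in middle and -1.29 in apex. In edgeR's test on libraries the base difference did not pass the technical spread (adjusted p = 0.339), and those of middle and apex did (adjusted p = 3.35e-12 and 9.56e-23). It stood at 1.86 ± 0.122, 2.99 ± 0.348 and 9.84 ± 0.395 CPM in base, middle and apex of the cKO and at 2.17 ± 0.211, 6.37 ± 0.573 and 24.4 ± 0.882 CPM in the Control (SD, n = 3 technical libraries). The estimate over the regions was -0.98 ± 0.21, with an adjusted p of 0.274 in edgeR and of 0.012 in DESeq2. The pools overlapped, since cKO apex lay above Control base and middle. Tectb, beta-tectorin of the tectorial membrane, had no common direction, with 2.24 in middle against -0.63 in base and -1.60 at the apex. Its base value rests on 7 counts in the cKO pool and 13 in the Control pool. The base difference did not pass the technical spread (edgeR test on libraries, adjusted p = 0.438). Those of middle and apex did (adjusted p = 1.58e-15 and 1.59e-26).

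In the pathways around Fst edgeR called 0 genes, and DESeq2 called Fst and 1 hedgehog gene. The counts below compare with 16.3% higher and 18.3% lower in every region of all autosomal genes tested. At an unadjusted edgeR p under 0.05 the shares over all were 5.15% higher and 5.8% lower. Of 23 genes of the follistatin, activin and TGF-beta family 6 were higher and 2 lower in every region, with a median of 0.01 and 3 higher and 1 lower at an unadjusted edgeR p under 0.05. Of 20 genes of BMP signalling and its Id targets 3 were higher and 2 lower (1 and 2 at the unadjusted p), and of 16 of the hedgehog pathway, which the title of the study names, 2 were higher and 3 lower (2 and 2 at the unadjusted p). Hair cell genes held 6 higher and 3 lower of 27, and supporting cells and gap junctions 4 and 4 of 18. The cell cycle list held 0 of 15 genes with a common direction, while 8 of 14 major histocompatibility genes were lower in every region and 0 higher, with a median of -0.10. Of these, 6 were lower at an unadjusted edgeR p under 0.05 (5.8% of all autosomal genes tested), and 0 were called by edgeR or DESeq2.

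**Figure D5:**
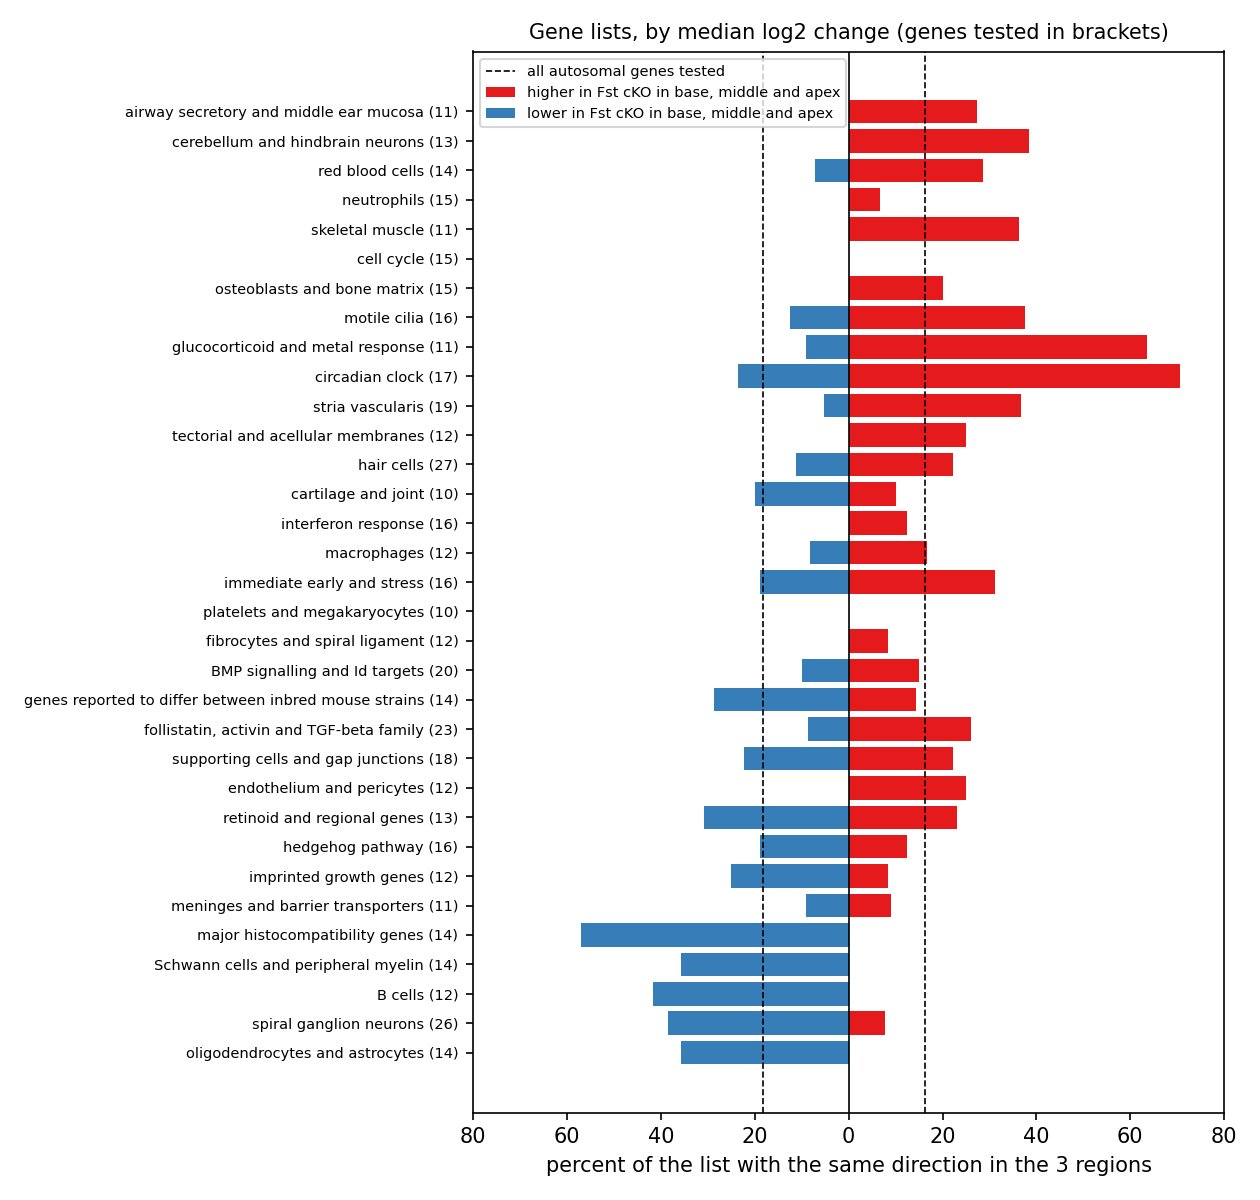
Percent of the tested genes of each list with at least 10 such genes (rows, ordered by the median log2 difference, number of genes in brackets) that were higher (red, to the right) or lower (blue, to the left) in Fst cKO in base, middle and apex alike. Dashed lines mark all autosomal genes tested, at 16.3% and 18.3%. The clock list and the glucocorticoid and metal list reach farthest to the right, at 70.6% and 63.6%, and the major histocompatibility list farthest to the left, at 57.1%.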

How the data were processed

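Per the labels' protocols, each region and genotype gave 1 RNA pool, split into 3 technical libraries with a TruSeq v2 and Ribo-Zero preparation. The submitters' processing notes name STAR 2.5.2b, Cuffdiff 2.2.1 and GRCm38/mm10, with no roles. The table deposited by the authors holds estimated counts, one per gene and library, as deposited and not scaled, read here under the unit of expected counts because 89.2% to 89.9% of a library's values, and not all, were whole within 1e-06, and FPKM as deposited by the authors, per library. The step that made them is not given in the sources used here.

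Counts were rounded and summed over the 3 libraries of a group. The 6 sums were fitted with edgeR 4.0.16 (R 4.3.3; filterByExpr, TMM, glmQLFit with legacy off, region plus genotype, two-sided, Benjamini-Hochberg over all 19446 genes tested). X, Y and mitochondrial genes stayed in the fit. Prior degrees of freedom were 2.89 and the common coefficient of variation was 0.116. Log2 differences by region use a prior count of 2. Within-region and between-region tests used the 18 libraries with edgeR and carry technical spread only. DESeq2 1.42.0 and limma 3.58.1 (also on log2(FPKM + 1)) were alternatives. A floor of 3 counts equals 0.0889 to 0.123 CPM in a single library. The folds given as at least a value used 3 counts per summed pool, which is a lower CPM. Floors and intervals cover counting error only. The model was tested on simulated data.

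Same-numbered libraries did not pair: 45 correlations of their deviations ran from -0.176 to 0.33, with 6 over 0.1. Positions came from GENCODE M21, near copies from BLAST 2.17.0 on its transcripts. Members and gene lists were chosen with earlier results of these data known. The rule named called genes averaging 1 CPM or more, Fst, Tectb and the 3 genes nearest each side of the threshold. Other named genes are list members or were chosen after their values were seen.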

Additional observations from a re-analysis of the deposited data

Results flagged for a closer look

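For some named genes the size of the genotype difference varied between regions by at least 1 on the log2 scale, at an adjusted p under 0.05 in edgeR's interaction test on the technical libraries, which carries no spread between animals. Each gene is listed only at the pair of regions with its largest such difference. Some met both criteria in another pair too. Examples are Ccdc108 at 3.92 apex minus base (adjusted p = 1.69e-06) and Dnah5 at 3.48 middle minus base (adjusted p = 1.74e-05). Apex minus base, the difference was 4.46 for Rsph4a (adjusted p = 0.00727), 3.52 for Dnah5 (adjusted p = 4.94e-06), -3 for Sult1e1 (adjusted p = 0.00798) and -1.07 for Fst (adjusted p = 5.39e-06). Apex minus middle, it was -3.86 for Tectb (adjusted p = 2.95e-23), -3.77 for Asic2 (adjusted p = 5.95e-07) and 1.28 for Apoa4 (adjusted p = 7.65e-09). Middle minus base, it was 4.35 for Ccdc108 (adjusted p = 1.1e-07), 1.51 for Ttc21a (adjusted p = 0.00245), -1.26 for Kcnh1 (adjusted p = 0.00346), 1.12 for Ccdc40 (adjusted p = 0.0353) and 1.10 for Ifitm5 (adjusted p = 0.00326). Apart from Tectb these genes had the same sign in the 3 regions but not the same size. In base the differences of Fst, Dnah5 and Rsph4a did not pass the technical spread (edgeR test on libraries, adjusted p = 0.339, 0.226 and 0.25). In apex that of Asic2 did not (adjusted p = 0.115). A shared direction is therefore not secure for these 4 genes. None of the 17 clock genes, and none of Fkbp5, Mt1, Mt2, Zbtb16 and Sgk1, met both criteria. Their own log2 differences were mostly under 1, which left little room to reach the size criterion. Several of them still differed between regions at an adjusted p under 0.05 in that edgeR test. Examples are Nr1d2 (-0.31 apex minus middle, adjusted p = 1.42e-13) and Mt1 (0.25 apex minus middle, adjusted p = 4.22e-10). Middle minus base, Dbp differed by 0.32 (adjusted p = 3.24e-09) and Fkbp5 by 0.30 (adjusted p = 6.62e-08).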

How the results depend on the processing

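Technical libraries of 1 pool per group give no spread between animals, and 2 residual degrees of freedom limit the fit. The number of called genes moved with the tool. The edgeR count of 3 became 0 with no filter beyond 1 count, 0 with a mean of at least 5 CPM, 0 with the legacy quasi-likelihood fit (smallest adjusted p = 0.0852), 1 with limma and voom (none of the 3) and 350 with DESeq2 (the 3 among them), and 0 with limma on log2(FPKM + 1) without a filter. With limma on log2(FPKM + 1) or log2(FPKM + 0.1) it was 2, and 0 of these were among the 3. It was 44 without the base, 5 without the middle and 0 without the apex, counting genes of the same direction in 2 regions. Over the 18 libraries taken as samples it was 4014 with no replicate block and 3846 with a replicate block, and the replicate numbers did not pair the samples. Leaving out 1 library gave 0 to 5. The number of genes at least 1.5-fold apart, 146, was 39 at 2-fold and 11 with a mean of at least 5 CPM, and ran from 135 to 160 with 1 library left out. The cause of these shifts was not tested. Of the named genes, Rps13, Rps15a, Cry1 and Tectb changed sign. The Tectb estimate was -0.24 ± 0.85 (SE), over regions of opposite direction. The Rps13 estimate ran from -0.021 to 0.0015 with 1 library left out. Rps13 went to 0.0026 with upper quartile factors, 0.00086 with a mean of at least 5 CPM, 0.0043 with limma on FPKM (0.0043 with either pseudocount and without a filter), 0.00064, 0.00071 and 0.0015 without Control base replicate 2, Control base replicate 3 and Control apex replicate 2, 0.041 without the base and 0.026 without the middle. Rps15a went to 0.015 with limma on FPKM in all 3 settings, Cry1 to 0.0077 without the middle and 0.041 without the apex, and Tectb to 0.011 with the legacy fit, 0.032 with limma on log2(FPKM + 0.1) and 1.89 without the apex. Of 2260 values of named genes under these settings, 2005 kept direction and side of the threshold, 49 lost a call, 188 gained one and 18 changed sign. An uncalled gene that stayed uncalled counts as kept, and only 3 of the named genes were called at the start. The 2005 therefore say little about the calls, and the 49 lost calls all belong to those 3 genes.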
